A study of Homo sapiens with 6 samples.

Results

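TRIM genes encode the tripartite motif family, a large group of mostly RING-type ubiquitin ligases. The family was taken here as every row of the deposited gene table whose symbol is TRIM followed by a number and at most 1 letter, which gave 59 genes of 17891. Of these, 47 had a mean TPM (a transcript level corrected for gene length and library size) of at least 0.5 over the 6 libraries, and 46 of the 47 also passed the filter on low counts and were tested. The 10 members counted as interferon-responsive from general knowledge of the family were TRIM5, TRIM14, TRIM21, TRIM22, TRIM25, TRIM26, TRIM34, TRIM38, TRIM56 and TRIM69, and the other 49 formed the second set.

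RNA came from T47D, an established luminal breast cancer line that carries estrogen and prolactin receptors, grown for 2 days in RPMI1640 with serum. Both groups had been transduced with the puromycin-selectable PLVX lentivirus: 3 libraries with the vector carrying PRL (the prolactin gene) and 3 control libraries with the same vector as a lentivirus control. Cells were screened after transduction, and RNA was extracted with Trizol. The series calls the 3 libraries of each group biological replicates, but whether they came from separate transductions or cultures is not given in the sources used here, so p-values may measure mainly the spread between libraries of the same transduced cells. PRL itself had 3, 3 and 1 estimated counts in the controls and 8277, 8097 and 7789 in the PRL libraries, in the direction of the labels.

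A TRIM protein carries an amino-terminal RING domain, which recruits a ubiquitin-conjugating enzyme, then B-box zinc fingers and a coiled coil through which the proteins pair. The carboxy-terminal domain differs between members and chooses the target: a SPRY domain in most, a PHD finger with a bromodomain in the TRIM24, TRIM28 and TRIM33 group, NHL repeats in TRIM2, TRIM3 and TRIM32. A part of the family is transcribed in response to interferon, through factors that bind the interferon-stimulated response element, and acts against viruses or tunes the signalling of viral RNA and DNA sensors.

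The interferon-stimulated response element core was sought in RefSeq promoter windows (GRCh38.p14, 250 bases before to 50 after a start), because the members compared below divide along the response to interferon. The motif was a GAAA followed, after any 2 bases, by a second GAAA, on either strand; on the opposite strand it reads TTTC, 2 bases, TTTC. Windows were matched for 45 of the 59 members. It was found in 5 of the 8 tested interferon-responsive members with a window (62.5%), in 3 of 26 other tested members (11.5%; TRIM2, TRIM16 and TRIM44) and in 4.13% of the 14125 genes of the deposited table that have a window. Genes with several starts have more than 1 window and more chances of a match. The 5 members, and TRIM69, which was not tested, are shown on the strand of the gene, 5′ to 3′, with the motif in capitals.
TRIM14: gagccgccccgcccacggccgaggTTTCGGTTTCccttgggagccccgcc
TRIM5: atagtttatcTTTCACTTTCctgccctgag
TRIM34: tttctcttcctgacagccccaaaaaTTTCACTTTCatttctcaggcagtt
TRIM26: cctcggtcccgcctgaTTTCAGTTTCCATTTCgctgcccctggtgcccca
TRIM69: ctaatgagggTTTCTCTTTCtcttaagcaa
TRIM21: gcgGAAACTGAAAGTGAAAtag

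These stretches lie at chr9:98119223-98119272 (minus strand, TRIM14), chr11:5685082-5685111 (minus, TRIM5), chr11:5624886-5624935 (plus, TRIM34), chr6:30213567-30213616 (minus, TRIM26), chr15:44736456-44736485 (plus, TRIM69) and chr11:4393667-4393688 (minus, TRIM21). In TRIM14 and TRIM5 the motif began 26 and 27 bases before the start of the RefSeq window, in TRIM69 62, in TRIM34 90 and in TRIM26 194. The 30 bases shown for TRIM5 and for TRIM69 lie within an annotated exon of the same gene. They are thus not upstream of every annotated transcript. Of the TRIM34 stretch 9 bases lie in an exon of AC104389.4. TRIM26 and TRIM21 held 2 overlapping copies, and those of TRIM21 began 18 and 24 bases after the start. TRIM25, TRIM38 and TRIM56 had windows without these letters. TRIM22, the tested interferon-responsive member with the largest rise below, had no window and could not be searched. A second motif, TTCNNNGAA, the form bound by STAT dimers, was found in 0 of the 8 and in 5 of the 26 (19.2%), against 8.80% of genes of the deposited table. A match is a run of letters, not a measured site, and the motif and the levels below were not tested against each other.

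Libraries held 16211146 to 17402348 estimated counts, so that 1 count was 0.0575 to 0.0617 CPM (counts scaled to the size of the library). The spread was wider between controls than between PRL libraries, with a chi-square per gene of 13.4 to 25.7 between controls against 1.68 to 2.22 between PRL libraries. Ribosomal protein genes took 15.6% to 18.7% of counts in controls and 10.1% to 10.6% in the PRL group, and the TMM factors that set the scale below were 0.848 to 0.955 and 1.08 to 1.11. The part of these shares in the results was not tested. The 8 luminal markers summed to 12400 to 13485 TPM in controls and 11872 to 12103 in the PRL group, nearly all from KRT8 and KRT18. Of these PGR, FOXA1 and GATA3 rose (0.85, 0.49 and 0.23 on the log2 scale), KRT18, KRT8 and ESR1 fell (-0.73, -0.60 and -0.35), and EPCAM and PRLR did not pass. Of the leukocyte markers reported here CD68 (2.90 to 16.6 mean TPM), CD14 (0.373 to 1.26) and CD3E (0.543 to 1.46) rose, LYZ fell (2.66 to 1.93), and PTPRC, the pan-leukocyte marker (0.827 and 1.09), did not pass. The 6 fibroblast markers summed to 11.4 to 16.1 and 23.8 to 24.7 TPM, nearly all from COL1A1, and the endothelial markers to at most 0.34 TPM in any library.

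Prolactin-expressing cells had more transcript of all 9 tested interferon-responsive TRIM genes, and the rest of the family moved both ways. At an adjusted p under 0.05 in edgeR's quasi-likelihood test (Benjamini-Hochberg over all 14076 genes tested), 19 of the 46 tested members rose and 8 fell, where 32.4% of all genes tested rose and 30.5% fell, 62.9% in either direction. In the interferon-responsive set 9 of 9 rose, with a median log2 fold change (PRL over control) of 1.24 and a range of 0.27 to 5.10. In the other set 10 of 37 rose (27.0%) and 8 fell (21.6%), with a median of 0.12. The median of all genes tested was 0.01. At least 2-fold rises were found for 6 of the 9 and 3 of the 37, against 10.6% of all genes tested. No member fell by 2-fold or more, as 745 of the 14076 genes tested did. The difference between the sets was not tested. In bulk RNA a change in the share of cells that express a gene and a change in its RNA per cell cannot be told apart.

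**Figure D1:**
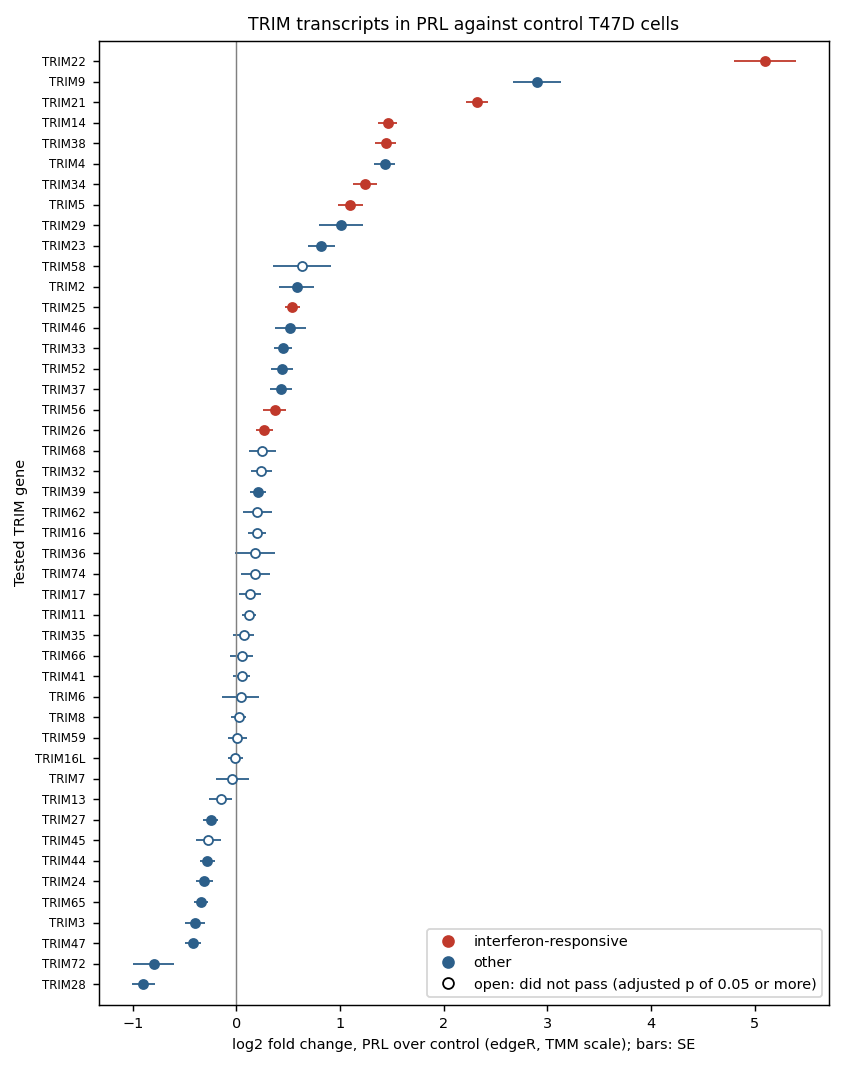
Log2 fold change (x axis, PRL over control, TMM scale) of the 46 tested TRIM genes (y axis), with bars for the standard error, interferon-responsive members in red, the others in blue, and open symbols for genes that did not pass the test. All 9 red points lie above 0, from 0.27 for TRIM26 to 5.10 for TRIM22, and the blue points run from -0.90 for TRIM28 to 2.90 for TRIM9.

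The sum of deposited TPM shows how much TRIM transcript each set contributed. The 9 interferon-responsive genes together gave 69.7, 89.9 and 89.8 TPM in the controls and 212.4, 200.1 and 199.0 TPM in the PRL libraries. The 37 others gave 682, 814 and 738 TPM in the controls and 857, 839.8 and 827 TPM in the PRL libraries. The interferon-responsive share of this TRIM transcript was thus 10.0% ± 0.79 (SD, n = 3) in controls and 19.5% ± 0.317 in the PRL group.

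**Figure D2:**
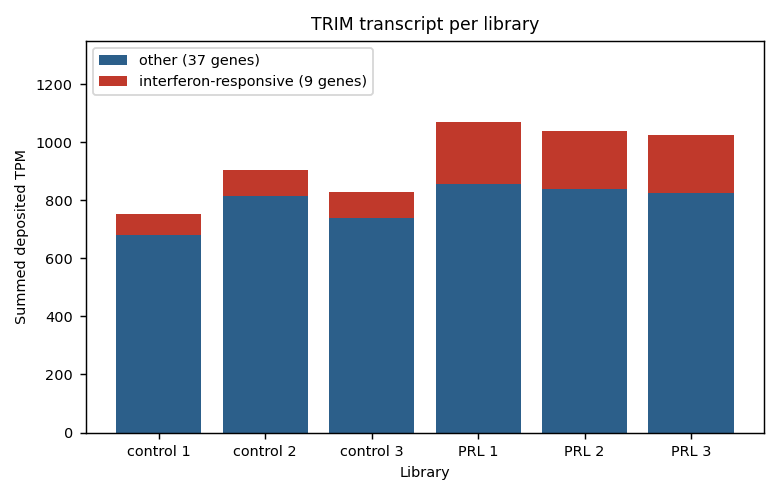
Summed deposited TPM (y axis) of the tested TRIM genes in each library (x axis), split into the 9 interferon-responsive and the 37 other members. The red part is 69.7 to 89.9 TPM high in the controls and 199.0 to 212.4 TPM high in the PRL libraries.

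The largest rise among the tested members was that of TRIM22. Both TRIM22 and TRIM9, which lead the order of folds, passed the TPM minimum only through the PRL group, at 0.127 and 0.19 mean TPM in controls. Levels are given for control replicates 1 to 3 and then PRL replicates 1 to 3, as CPM with TMM scaling (trimmed mean of M values), and group levels as mean ± SD (n = 3). TRIM22 (NCBI gene 10346), which restricts retroviral and influenza replication, lay at 0.474, 0.319 and 0.0624 CPM in controls and 9.58, 10.4 and 9.64 CPM in the PRL libraries. It was close to absent in controls, with 7, 5 and 1 counts, and no control came near a PRL library. The count ratio was 35.3 with a 95% interval of 20.5 to 66.8 for counting error, and the fitted log2 fold change was 5.10 (SE 0.30, edgeR adjusted p = 4.2e-07). TRIM5 (gene 85363), which binds incoming retroviral capsids, had 7.66, 10.3 and 9.67 CPM in controls and 20.9, 19.3 and 19.1 CPM in the PRL libraries (edgeR log2 fold change 1.10, SE 0.12, adjusted p = 2.9e-05). Its groups were well apart, at about 2.14-fold.

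TRIM34 (gene 53840), a close relative of TRIM5 that also acts on capsids, had 5.08, 5.23 and 5.99 CPM in controls and 12.85, 12.66 and 12.95 CPM in the PRL libraries (edgeR log2 fold change 1.24, SE 0.12, adjusted p = 1.1e-05). Its level is uncertain, because the readthrough gene TRIM6-TRIM34 covers 83.0% of its exon bases on the same strand. TRIM21 (gene 6737), a cytosolic antibody receptor that marks antibody-coated virus for the proteasome, had 6.64, 7.53 and 8.98 CPM in controls and 36.99, 39.43 and 39.38 CPM in the PRL libraries. This was a 4.99-fold difference (edgeR log2 fold change 2.32, SE 0.11, adjusted p = 1.0e-07), and on the length-corrected scale TRIM21 went from 5.47 ± 1.33 to 36.95 ± 0.666 TPM, so that in the PRL group only TRIM25 and TRIM26 of the interferon-responsive set had higher TPM.

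TRIM6, TRIM34, TRIM5 and TRIM22 lie in a cluster on chromosome 11 (GENCODE 29, GRCh38: TRIM6 from 5596109 to 5612958, TRIM34 from 5619764 to 5644398, TRIM22 from 5689689 to 5737089 on the plus strand, and TRIM5 from 5663557 to 5938619 on the minus strand). The annotated span of TRIM22 lies within that of TRIM5 on the opposite strand, with no exon bases shared between them. Within this cluster TRIM6, an activator of the kinase IKKε in interferon signalling, had 2.71, 3.76 and 3.56 CPM in controls and 3.54, 3.25 and 3.54 CPM in the PRL libraries. Its groups overlapped (edgeR log2 fold change 0.04, SE 0.18, adjusted p = 0.86), and the readthrough covers 29.3% of its exon bases. TRIM21 (4384897 to 4393696) and TRIM68 (4598672 to 4608259) lie on the same chromosome further from the cluster. TRIM68, at 6.42 ± 0.637 CPM in controls against 7.62 ± 0.597 CPM with PRL, did not pass the test (edgeR adjusted p = 0.13).

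The other 5 tested interferon-responsive members rose from 2.76-fold down to 1.20-fold. TRIM14 (gene 9830), a RING-less adaptor of the mitochondrial antiviral protein MAVS, had 16.9, 17.3 and 20.6 CPM in controls and 51.8, 49.6 and 49.8 CPM in the PRL libraries (edgeR log2 fold change 1.46, SE 0.09, adjusted p = 7.2e-07). TRIM38 (gene 10475), which restrains NF-kB signalling through TAB2, had 10.1, 10.5 and 9.61 CPM in controls and 25.9, 29.6 and 26.5 CPM in the PRL libraries (edgeR log2 fold change 1.44, SE 0.10, adjusted p = 1.2e-06). Both sets of controls were tight and lay far below every PRL library.

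TRIM25 (gene 7706), a ligase for the RNA sensor RIG-I that is also known as an estrogen-responsive gene, was already abundant, at 96.3, 104.6 and 100.9 CPM in controls, and had 149.7, 139.4 and 149.8 CPM in the PRL libraries (edgeR log2 fold change 0.54, SE 0.07, adjusted p = 1.1e-04). TRIM56 (gene 81844), which takes part in STING and TLR3 signalling, scattered in the controls at 104.2, 125.9 and 89.0 CPM, with control replicate 2 close to the PRL libraries at 141.6, 132.2 and 137.9 CPM (edgeR log2 fold change 0.37, SE 0.11, adjusted p = 0.015). TRIM26 (gene 7726), which degrades nuclear IRF3, had 58.6, 56.6 and 65.5 CPM in controls and 74.7, 72.1 and 70.8 CPM in the PRL libraries (edgeR log2 fold change 0.27, SE 0.08, adjusted p = 0.012). The groups did not overlap for any of the 9 genes, where all PRL libraries lay above all controls for 35.9% of all genes tested. Without PRL replicate 1 the calls of TRIM26 and TRIM56 ended (edgeR adjusted p = 0.065 and 0.055), which left 7 of 9.

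**Figure D3:**
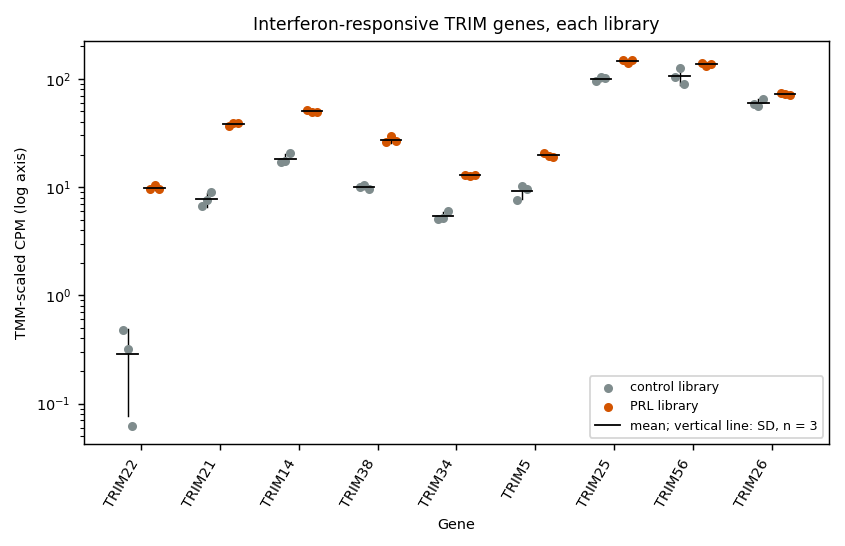
TMM-scaled CPM (y axis, log scale) of the 9 tested interferon-responsive TRIM genes (x axis) in each control and PRL library, with the mean and SD of each group. TRIM22 goes from 0.0624 to 0.474 CPM in controls to 9.58 to 10.4 CPM in the PRL libraries, and TRIM25 and TRIM56, the most abundant on this scale, differ least beside TRIM26.

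TRIM69, the remaining interferon-responsive member and a microtubule-bound inhibitor of RNA viruses, stood at the edge of the rule with a mean of 0.502 TPM and was removed by the filter on low counts. It had 1, 7 and 2 counts in controls and 12, 12 and 8 in the PRL libraries, a ratio of 2.77 with a 95% counting interval of 1.33 to 6.31. The next member above the minimum was TRIM9 at 1.05 TPM, and the nearest below it were TRIM31 at 0.218 and TRIM15 at 0.163 TPM.

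Family members under other symbols were listed separately: of 7 tested, 2 rose (28.6%) and 1 fell (14.3%), where 32.4% and 30.5% of all genes tested did. PML, also called TRIM19, the interferon-responsive organiser of nuclear bodies, rose from 42.8 ± 2.94 to 144.7 ± 0.934 CPM (edgeR log2 fold change 1.76, SE 0.08, adjusted p = 4.8e-08). Of the microtubule-binding pair, MID1 fell from 29.2 ± 3.62 to 17.2 ± 0.644 CPM and MID2 rose from 5.28 ± 0.759 to 8.11 ± 0.223 CPM. Their edgeR adjusted p were 1.2e-04 and 0.0029, and MID1 did not pass on log2(TPM + 1), at -0.25.

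Among the other 37 members the 3 with rises of at least 2-fold were TRIM9, TRIM4 and TRIM29, which were listed in different structural classes. TRIM9 (gene 114088), a brain ligase of axon guidance, had 0.813, 0.638 and 0.499 CPM in controls and 5.04, 4.85 and 4.74 CPM in the PRL libraries. The controls were uniformly low, and the log2 fold change was 2.90 (SE 0.23, edgeR adjusted p = 3.4e-06), 7.46-fold. TRIM4 (gene 89122), a SPRY-class ligase for RIG-I, had 11.9, 12.3 and 14.5 CPM in controls and 32.3, 35.6 and 36.5 CPM in the PRL libraries (edgeR log2 fold change 1.43, SE 0.10, adjusted p = 1.8e-06). Its rise was as large as those of TRIM14 and TRIM38. TRIM29 (gene 23650), a RING-less member of squamous and basal epithelium, had 2.982, 2.998 and 1.747 CPM in controls and 5.26, 5.18 and 5.08 CPM in the PRL libraries (edgeR log2 fold change 1.01, SE 0.21, adjusted p = 0.0016). Of 5 basal or myoepithelial markers, TP63 rose as TRIM29 did (log2 fold change 1.25, edgeR adjusted p = 0.0019), ACTA2, which made up most of their summed TPM, fell by 1.01, MYLK did not pass at 0.20, and KRT5 and KRT14 were near 0 and untested. The sum of the 5 was 15.3 to 18.6 TPM in controls and 11.9 to 13.4 TPM in the PRL group, and its part in the TRIM29 value was not tested.

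Smaller rises were found for 7 further members, and their groups did not overlap. All PRL libraries lay above all controls for 14 of the 37, where this held for 35.9% of all genes tested. TRIM23, which joins a ligase to an ARF GTPase domain, rose by 0.82 on the log2 scale (5.32 ± 0.716 to 9.39 ± 0.226 CPM). TRIM2, an NHL-class ligase of neurofilament, rose by 0.58 and TRIM46, an organiser of axonal microtubules, by 0.52. TRIM33, a PHD-bromodomain regulator of SMAD4, rose by 0.45 (34.8 ± 3.36 to 47.4 ± 0.747 CPM), TRIM52 by 0.44 and TRIM37, a ligase of peroxisomes and centrosomes, by 0.43. The edgeR adjusted p of these 6 lay between 3.6e-04 for TRIM23 and 0.013 for TRIM2, and TRIM2 kept its call in 12 of 17 alternative fits. It lost it without PRL replicate 2 (edgeR adjusted p = 0.071), in DESeq2 (adjusted p = 0.05) and in the 3 TPM fits (limma adjusted p 0.051 to 0.077). TRIM39, at 0.21 (24.6 ± 1.28 to 28.5 ± 1.32 CPM), was at the threshold (edgeR adjusted p = 0.049). The readthrough gene TRIM39-RPP21 covers 29.5% of its exon bases. TRIM39 lost its call in 9 of 18 alternative fits, 5 of them fits without a single library: control replicate 1 or 2, or any PRL replicate (edgeR adjusted p 0.073 to 0.18).

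The most abundant member by TPM, TRIM28, was also the clearest fall. TRIM28 (gene 10155, chromosome 19, 58544091 to 58550722), the corepressor that KRAB zinc finger proteins bring to chromatin, had 660.8, 583.8 and 489.6 CPM in controls and 308.1, 308.5 and 312.1 CPM in the PRL libraries. Every control was well above the PRL group, with control replicate 3 the lowest, and the log2 fold change was -0.90 (SE 0.11, edgeR adjusted p = 5.0e-05). By TPM it went from 267 ± 21.9 to 196.0 ± 3.71. Of 13 listed chromatin partners of TRIM28, 2 rose (15.4%) and 3 fell (23.1%) with TMM, where 32.4% and 30.5% of all genes tested did. On log2(TPM + 1), where 83.8% of all called genes rose, 8 of the 13 rose and 1 fell. The difference from the shares of all genes was not tested. CBX5, the heterochromatin protein that TRIM28 binds, fell from 178.03 ± 14.85 to 63.7 ± 2.81 CPM (log2 fold change -1.48, edgeR adjusted p = 3.6e-07), CHD3 fell by 0.40 on the log2 scale with TMM but lay at 0.06 on log2(TPM + 1), not past the test, and the histone methyltransferase gene SETDB1 rose by 0.33.

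The other members of the PHD-bromodomain class took different courses. TRIM24, a coactivator of nuclear receptors, had 28.4, 27.2 and 27.0 CPM in controls and 22.5, 21.8 and 22.3 CPM in the PRL libraries (log2 fold change -0.31, edgeR adjusted p = 0.0063), a direction that turned on log2 TPM (0.12). TRIM33 rose, as given above. TRIM66, which is expressed mainly in testis, averaged 21.6 ± 2.93 CPM in controls against 22.3 ± 0.706 CPM with PRL, and its groups overlapped.

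In the NHL class TRIM3 fell from 61.6 ± 8.88 to 46.8 ± 0.808 CPM (log2 fold change -0.40, edgeR adjusted p = 0.0061, but 0.03 on log2 TPM), TRIM2 rose, and TRIM32, a ligase linked to muscular dystrophy, had 27.3 ± 3.52 and 32.3 ± 1.75 CPM and did not pass (edgeR adjusted p = 0.06). TRIM32 passed without control replicate 3, at a log2 fold change of 0.37 in place of 0.24 (edgeR adjusted p = 0.0015). Both transmembrane members did not pass: TRIM13 had 23.7 ± 1.49 and 21.4 ± 2.61 CPM, and TRIM59 61.9 ± 6.45 and 62.1 ± 1.60 CPM. On log2(TPM + 1) TRIM59 passed, at 0.45 (limma adjusted p = 0.009).

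The remaining falls were of SPRY-class members and of TRIM44, which lacks that domain. TRIM72, a membrane repair protein of muscle, had 9.69, 11.8 and 6.30 CPM in controls and 5.43, 5.40 and 5.08 CPM in the PRL libraries (edgeR log2 fold change -0.80, SE 0.20, adjusted p = 0.0057), with control replicate 3 near the PRL group. TRIM47 went from 44.1 ± 2.96 to 32.9 ± 0.485 CPM (-0.42), with 51.5% of its exon bases overlapped by a gene on the opposite strand, TRIM65 from 63.6 ± 3.39 to 50.1 ± 1.70 CPM (-0.34), TRIM44 from 144.8 ± 5.03 to 119.7 ± 0.935 CPM (-0.28) and TRIM27 from 81.0 ± 2.39 to 68.3 ± 0.392 CPM (-0.25). Their edgeR adjusted p lay between 9.6e-04 for TRIM47 and 0.0092 for TRIM27, and TRIM27 lost its call without PRL replicate 2 (edgeR adjusted p = 0.052). All PRL libraries lay below all controls for 9 of the 37, the 8 that fell and TRIM45, where this held for 33.5% of all genes tested.

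Whether these small falls are falls depends on the scale. Over all genes the median difference on the log2 scale was 0.01 with TMM, 0.26 with library totals, 0.20 on log2(FPKM + 1) and 0.39 on log2(TPM + 1). With library totals all 46 tested members lay higher than with TMM, because leaving out the TMM factors shifts every gene by nearly the same amount. On log2(TPM + 1) 41 did so, but TRIM2, TRIM9, TRIM22 and TRIM58 lay lower, TRIM22 at 2.70 in place of 5.10 and TRIM9 at 1.28 in place of 2.90. On log2(FPKM + 1) TRIM5, TRIM14, TRIM21, TRIM22, TRIM23, TRIM29, TRIM34 and TRIM38 lay lower than with TMM, TRIM22 at 2.14. A pseudocount shrinks the fold of genes with low values. On log2(TPM + 1) TRIM3, TRIM24, TRIM27, TRIM44 and TRIM65 lay between 0.03 and 0.20, none past the test, and TRIM47 and TRIM72 at -0.07 and -0.19, also not past it. TRIM28 alone of the 8 kept its call in all 18 alternative fits, at -0.44 on log2(TPM + 1). Relative to the median of all genes on each scale, all 8 stayed below it on each scale where they were measured. With library totals this follows from the common shift. The 9 interferon-responsive members were higher on every scale.

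**Figure D4:**
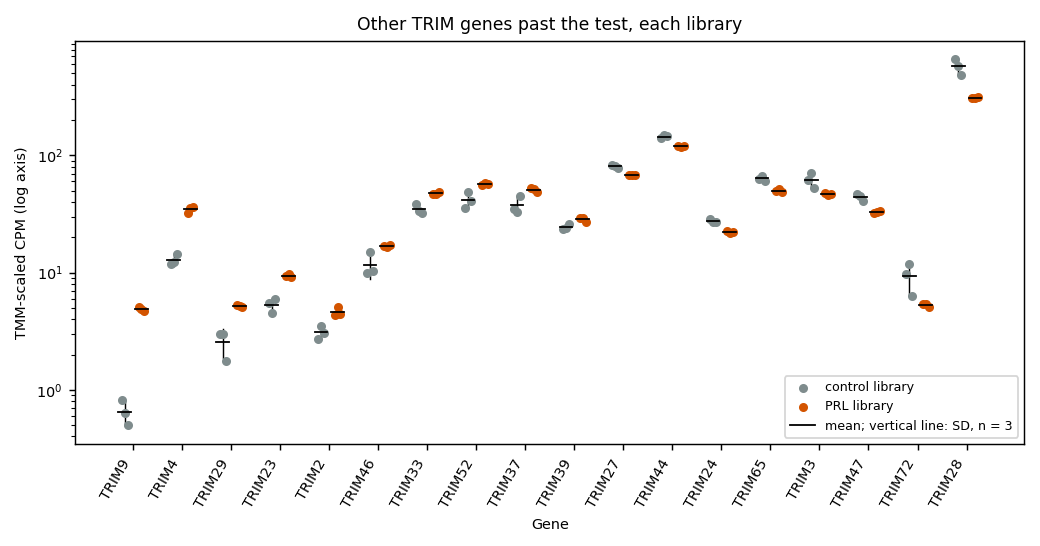
TMM-scaled CPM (y axis, log scale) of the 18 other TRIM genes past the test (x axis, ordered by fold change) in each control and PRL library, with the mean and SD of each group. TRIM9 and TRIM4 rise most, and TRIM28, at the right, falls from 489.6 to 660.8 CPM in controls to 308.1 to 312.1 CPM in the PRL libraries.

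**Figure D5:**
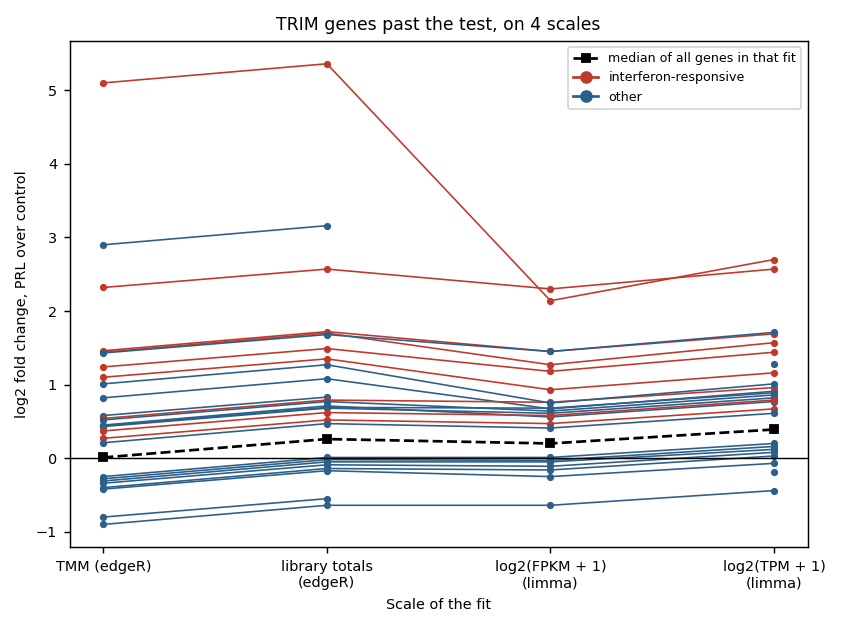
Log2 fold change (y axis, PRL over control) of the 27 TRIM genes past the test on 4 scales (x axis), with the median of all genes in each fit as black squares. Points are missing where a gene was under a scale's minimum level. The falls of 5 members on the TMM scale turn to values above 0 on log2(TPM + 1), while the red lines stay above 0 on all 4 scales.

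The 19 tested members that did not pass lay between -0.27 for TRIM45 and 0.63 for TRIM58 on the log2 scale. TRIM58, a red cell ligase, scattered most, at 2.78, 3.89 and 1.75 CPM in controls and 5.59, 3.52 and 3.94 CPM in the PRL libraries (SE 0.28, edgeR adjusted p = 0.07). The abundant TRIM8, a regulator of STAT and NF-kB signalling, averaged 104.5 ± 1.60 CPM in controls against 105.8 ± 1.36 CPM with PRL (log2 fold change 0.02, SE 0.07), and TRIM11 77.0 and 83.7 CPM. TRIM16 and its near-copy TRIM16L (0.20 and -0.01 on the log2 scale) resemble each other, as do TRIM74 (0.18) and TRIM50, so the division of reads between them is uncertain. By class, 10 of 24 tested SPRY members rose (41.7%) and 4 fell (16.7%), where 32.4% and 30.5% of all genes tested did. Of the 16 SPRY members outside the interferon-responsive set 2 rose (12.5%) and 4 fell (25.0%), with a median of 0.09. These counts are small, and their difference from the shares of all genes was not tested.

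The 12 members under the TPM minimum had few reads. TRIM43B, TRIM48, TRIM49B, TRIM50, TRIM63 and TRIM71 had 0 counts in every control and at most 4 over the PRL libraries, TRIM54 and TRIM61 3 and 1 in both groups, and TRIM67, a neural member, 11 and 5. TRIM15, TRIM31 and TRIM55, and TRIM63 with a single count in each, had more counts in every PRL library than in any control. All PRL libraries lay above all controls for 35.9% of all genes tested. The heart and muscle ring finger genes TRIM54, TRIM55 and TRIM63 thus held 3, 0 and 0 counts over the controls.

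Partners of TRIM proteins were counted from lists. Of 14 ubiquitin-conjugating enzymes, which load the RING domain or act on related modifiers, 4 rose (28.6%) and 3 fell (21.4%). Of all genes tested, 32.4% rose and 30.5% fell, and the difference was not tested. On log2(TPM + 1), where 83.8% of all called genes rose, 10 of the 14 rose and 0 fell. UBE2L6, which conjugates ISG15 with TRIM25 among its ligases, rose from 77.3 ± 5.55 to 554.7 ± 16.8 CPM (edgeR log2 fold change 2.84, SE 0.09, adjusted p = 3.0e-09), and UBE2D4 and UBE2V2 fell by 0.75 and 0.45 on the log2 scale with TMM. On log2(TPM + 1) neither passed, at -0.29 and 0.01. Of 17 tested antiviral signalling partners 9 rose (52.9%) and 2 fell (11.8%), with a median of 0.34, where 32.4% and 30.5% of all genes tested did. DDX58, the gene of RIG-I, rose from 8.14 ± 0.843 to 107.5 ± 2.90 CPM, IFIH1, the gene of the sensor MDA5, from 5.45 ± 0.956 to 80.5 ± 5.53 CPM and IRF7 from 8.64 ± 1.07 to 102.6 ± 4.43 CPM. The edgeR adjusted p of these 3 were 8.4e-10, 3.3e-09 and 1.6e-09. The leukocyte markers CD68, CD14 and CD3E moved in the same direction as these genes and the interferon-responsive TRIM genes, LYZ moved the other way, and PTPRC did not pass. Their part in these values was not tested.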

How the data were processed

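The table the authors deposited gives 17891 genes with estimated counts, FPKM and TPM in each of 6 libraries, per the file headers. Of the estimated counts, 44.1% to 45.9% in a library were not whole numbers. The submitters' processing notes name HISAT2 2.1.0, Bowtie2 2.3.4.3 and GRCh38.p13. The estimated counts the authors deposited sum to different totals in each library, as unscaled counts do. For the counting tool and annotation, a name is not given in the sources used here. Strand use is not stated either, so reads of sense and antisense partners may be mixed. The deposited FPKM and TPM values are scaled by the authors for length and depth. The authors' 6 columns of group means were not used.

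Estimated counts were rounded. The test was the robust quasi-likelihood test of edgeR 4.0.16 (R 4.3.3), with only the group in the model, after its filter on low counts and TMM scaling. SE is the absolute log2 fold change over the root of F. Counting intervals are exact binomial 95% intervals and cover counting error only. Alternatives were DESeq2 1.42.0, limma 3.58.1 (voom, or log2 values with a pseudocount of 1 or 0.1), other scalings and filters, a replicate block, each library left out, other TPM minimums and other interferon lists. The fit was tested on simulated data. Positions and exon overlaps are from GENCODE 29.

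The members, lists and naming rule were chosen with earlier results of these data known. The rule named every tested interferon-responsive, PHD-bromodomain, NHL and transmembrane member, the other members past the test (up to 12 in each direction), the 2 members nearest the TPM minimum on each side and the 3 partners per list with the smallest adjusted p. Other members were singled out after their values were seen. A list of interferon reference genes in that rule is not reported here.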

Additional observations from a re-analysis of the deposited data

Results flagged for a closer look

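In 5 members outside the test, every PRL library had more reads than every control. This held for 35.9% of all genes tested, and the share among untested genes was not computed. One of the 5 members, TRIM63, had 0 counts in each control and 1 in each PRL library, within the limit that a count of 0 allows. The other 4 had more reads. TRIM55, a muscle ring finger gene, had 0 counts in the controls and 21 in the PRL libraries together. Taking 3 counts per control library as the limit of detection, it was at least 2.02-fold higher. TRIM15, a SPRY-class gene near the HLA region, had 0 and 15 counts, at least 1.44-fold higher by the same limit. TRIM31, a colon and stomach ligase that some sources count as interferon-responsive, had 1 count in each control and 22 in all with PRL (ratio 6.34 with a 95% counting interval of 1.90 to 33.1). TRIM69 had 10 control and 32 PRL counts in sum. In edgeR without the filter on low counts, the adjusted p was 0.0016 for TRIM55, 0.0052 for TRIM15, 0.0098 for TRIM31 and 0.055 for TRIM69. These members were singled out because their groups did not overlap in the same counts, so the adjusted p are not separate support for a rise.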

How the results depend on the processing

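The medians of both sets kept their sign in all 18 alternative fits, but other scalings moved the counts. Rises and falls among tested members numbered 30 and 2 with library totals, 33 and 1 on log2(TPM + 1), 34 and 1 on log2(TPM + 0.1) and on log2(TPM + 1) without a filter, with 2 falls on log2(FPKM + 1). Among the other members these were 21 and 2, 24 and 1, 24 and 1, 24 and 1, and 16 and 2. The median of the interferon-responsive set was 1.49 with library totals, 1.32 without a filter and in DESeq2, 1.44 on log2(TPM + 1), 1.54 on log2(TPM + 0.1), 1.30 on log2(TPM + 1) without a filter, 1.44 with the narrow list and 1.10 with the wide list. That of the other set was 0.37 with library totals, 0.24 on FPKM, 0.44, 0.52 and 0.44 on the 3 TPM fits. The share of called genes that rose was 51.4% with TMM, 72.9% with library totals, 69.9% on FPKM and 83.8% on log2(TPM + 1).

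Leaving out 1 library gave 7 to 10 rises in the interferon-responsive set with a median of 1.12 to 1.35, 8 to 12 rises and 7 to 9 falls in the other set with a median of 0.03 to 0.16, 16 to 21 rises over all members and 7590 to 9952 called genes. TRIM69 entered the test in 4 of these fits.

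Single members changed sign as follows. Library totals gave TRIM13 0.10 and TRIM27 0.01, and FPKM 0.07 and 0.01. Log2(TPM + 1), with and without a filter, gave TRIM3 0.03, TRIM13 0.24, TRIM24 0.12, TRIM27 0.20, TRIM44 0.16 and TRIM65 0.08, and log2(TPM + 0.1) gave 0.03, 0.28, 0.14, 0.21, 0.17 and 0.08. TRIM59 lay at -0.01 with DESeq2 and its size factors and without a filter, at -0.02 without control replicate 1 or PRL replicate 2 and at -0.03 without control replicate 3 (up to 0.09 without control replicate 2), and TRIM66 and TRIM6 at -0.02 and -0.08 without control replicate 1. TRIM16L and TRIM7, at -0.01 and -0.04 with TMM, passed as higher on log2(TPM + 1) (0.34 and 0.38, limma adjusted p = 0.013 and 0.026) and in the other TPM fits, and TRIM16L also with library totals (0.24, edgeR adjusted p = 0.029). TRIM45 lay at 0.23 on log2(TPM + 1), 0.27 on log2(TPM + 0.1) and 0.06 on FPKM, without passing. The other sign changes, of TRIM7, TRIM8 and TRIM16L, did not pass either. The cause was not tested.

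Same-numbered libraries did not deviate together (correlations -0.105, 0.043 and -0.057), and control replicate 1 correlated best with PRL replicate 3 (0.129). The deviations were taken within groups of 3 libraries, so these correlations cannot show whether same-numbered libraries shared a culture or a batch. With the replicate block 19 members rose and 8 fell, 9 of 9 rose in the interferon-responsive set, and 8531 genes were called against 8854 without it. With the block TRIM39 did not pass (edgeR adjusted p = 0.11) and TRIM58 did (0.029), and no other tested member changed its call.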
